A study of Rattus norvegicus with 4 samples.

Results

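Border-associated macrophages are the resident macrophages of the brain's edges: the perivascular spaces, the meninges and the choroid plexus. Like microglia they depend on Csf1r signalling and make complement C1q, but they carry the mannose receptor Mrc1 and the haemoglobin scavenger receptor Cd163, take up material from blood and cerebrospinal fluid, and can present antigen on MHC class II. Here they were chosen from a single-cell RNA matrix of rat hippocampus as cells with at least 2 unique transcripts (UMIs) of Mrc1 plus Cd163 and at least 2 of the C1q genes C1qa, C1qb and C1qc. Cells with more than 3 UMIs of the endothelial genes Cldn5 and Flt1, or more than 5 of the myelin genes Mag, Mog and Mobp, were left out. The rule found 198 cells among 28879 that held at least 500 UMIs and 300 genes and at most 20% mitochondrial UMIs, out of 31638 barcodes. They were set beside 10897 microglia, defined by at least 5 C1q UMIs, at least 1 UMI of Tmem119 or Cx3cr1, and none of Mrc1 or Cd163.

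The study titled 4 samples of wild-type Sprague Dawley rat hippocampus, 1 library each: NC, a negative control; MCAO, with the middle cerebral artery occluded on 1 side; and DEPR and MD, both described as chronic stress. Its design text gives male adult rats aged 10 to 12 months in 2 groups of 10, all with arterial occlusion and 1 group then stressed, with 5 rats of each group used for sequencing, so it does not account for all 4 titles. Tissue was dissociated with an enzymatic kit and red cells were lysed. The barcodes carry suffixes 1 to 4, and no label ties a suffix to a title; the 4 barcode sets are therefore reported as unassigned sets, each 1 library, with no test between them and no p-value.

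Sets 1 to 4 held 37, 16, 24 and 121 border macrophages with 193082, 61000, 142656 and 612181 UMIs in all, so that 1 UMI was worth 5.18, 16.4, 7.01 and 1.63 CPM (UMIs per 1000000 UMIs of the class in that set). Their median depth was 4619, 3657, 5112.5 and 4830 UMIs per cell, against 5126, 4664, 6891 and 6007 in microglia. Their median mitochondrial share was 14.5%, 15.2%, 8.93% and 7.18%, against 6.35%, 5.84%, 4.54% and 3.51% in microglia, and their ribosomal protein transcripts made up 6.56%, 3.86%, 10.1% and 10.7% of UMIs, against 11.1%, 9.93%, 8.86% and 8.60%. Among border macrophages, sets 1 and 2 had the higher mitochondrial and the lower ribosomal shares; in microglia these sets had the higher of both. In all, 87 kept barcodes occurred in 2 sets, 3 of them with a border macrophage. Of 942 cells that Scrublet called as doublets, 1 was a border macrophage.

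Among the chosen cells 3 stood out by many transcripts of other blood cells. A cell of set 1 with 14412 UMIs had 575 UMIs of Lyz2, 51 of Fn1 and 37 of Vcan, and another with 14644 UMIs had 91 of S100a9. A cell of set 4 had 13089 of its 17997 UMIs from AABR07060872.1, a gene with no common name in the files, with 75 UMIs of Ighm and 51 of Mzb1, an immunoglobulin heavy chain and a plasma cell gene. These cells were singled out after their values were seen, and results that rest on them are given with and without them. Of 10 monocyte markers in the matrix 9 were found, and their summed level was 5252, 377, 2489 and 3460 CPM in sets 1 to 4, or 457, 377, 2489 and 3565 CPM without the 3 cells, against 971 to 1273 CPM in microglia. Most of this was the lysozyme gene Lyz2. Of 10 dendritic cell markers 7 were at 0, among them Flt3, Xcr1, Clec9a and Ccr7, and the sum was 14.7 to 41.4 CPM. Of 10 neutrophil markers 6 were at 0, and without the 3 cells the sum was 7.01 to 18.3 CPM. Of 10 T and NK cell markers 7 were found, with Gzma, Gzmb and Klrb1 at 0, and without the 3 cells their sum was 54.9, 0, 21.0 and 121 CPM in sets 1 to 4, against 6.92 to 29.1 CPM in microglia. Of 6 B cell markers 4 were found, with Ms4a1 and Pax5 at 0, and without the 3 cells their sum was 6.10, 0, 63.1 and 69.0 CPM against 23.4 to 62.3 CPM. The part of such transcripts in the results was not tested beyond leaving out the 3 cells.

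The selecting genes had these values, which describe the choice. Mrc1 stood at 694, 639, 890 and 1184 CPM and Cd163 at 300, 295, 238 and 260 CPM in sets 1 to 4, and 193 of the 198 cells held Mrc1 and 122 held Cd163. Just inside the threshold were 41 cells with exactly 2 UMIs of the pair, and just outside it 70 cells with 1 UMI that met the other criteria. The cells with 2 UMIs had 953 CPM of Pf4, 953 of Clec10a and 16.7 of Tmem119. The cells with 1 UMI had 576 CPM of Pf4, 398 of Clec10a and 191 of Tmem119, so their profile lay between those just inside and the 13740 cells with none, which had 14.9, 1.86 and 348 CPM.

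Border macrophages made up 0.565% of the kept cells of set 1 (95% exact binomial interval 0.398 to 0.777), 0.194% of set 2 (0.111 to 0.315), 0.452% of set 3 (0.290 to 0.671) and 1.38% of set 4 (1.15 to 1.65). Intervals cover counting error only. The order was set 4 highest and set 2 lowest; sets 1 and 3 had overlapping intervals. As a share of border macrophages plus microglia the values were 1.65%, 0.455%, 1.32% and 3.44%. With every cell thinned to 2000 UMIs before the rule was applied, which left out 1116, 962, 658 and 1241 shallower cells, the shares were 0.478%, 0.151%, 0.236% and 1.01%. With at least 1000 UMIs and at most 10% mitochondrial UMIs they were 0.136% and 0.0327% in sets 1 and 2, and 1.05% in set 4. The part of tissue dissection and dissociation in these shares was not tested.

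**Figure D1:**
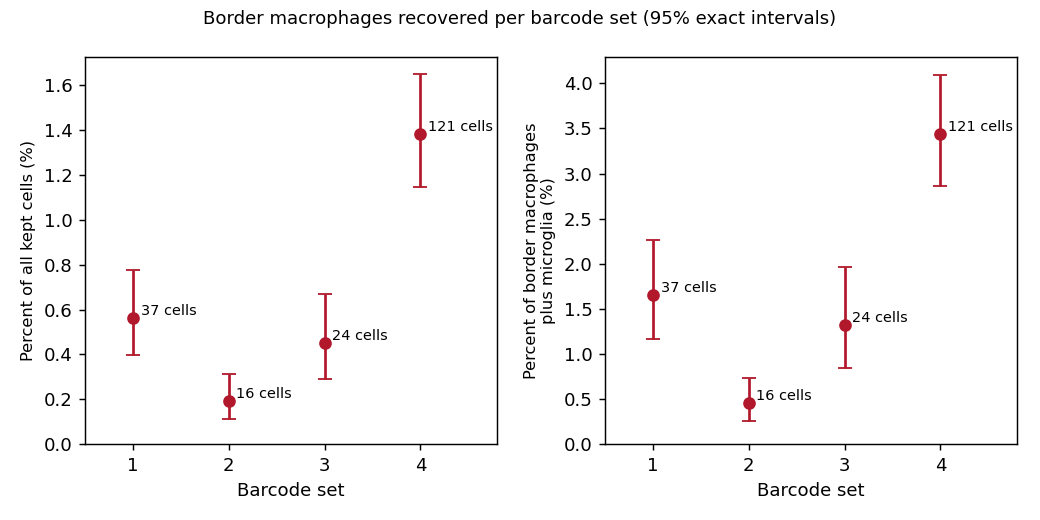
Share of border macrophages in each barcode set, of all kept cells (left) and of border macrophages plus microglia (right), in percent. Points are the shares with the number of cells beside them and bars are 95% exact binomial intervals; set 4 is highest at 1.38% of kept cells and set 2 lowest at 0.194%.

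Border macrophages and microglia also differed in identity genes that the rule did not use. UMIs were summed per class and set, 10 CPM were added to each CPM value, and a gene counted as higher or lower where its ratio reached 2-fold in the same direction in all 4 sets. With no replicate library this is a rule of size and not a test. Of 2019 genes with a mean of at least 50 CPM over the 8 sums, 74 were higher (3.67%) and 114 lower (5.65%) in border macrophages, and the median log2 ratio of all genes was -0.14. Among border macrophage genes outside the rule 12 of 23 in the matrix reached that level; 9 were higher and none lower, with a median log2 ratio of 4.48. The other 11 were too low to be measured, so these counts do not describe the whole list. The level is a mean over both classes, so a gene nearly absent from microglia entered only where border macrophages held much of it. The filter thus tilted the counts and the median towards higher genes. Of those left out, Vsig4, Cd209f, Clec4n and Igfbp4 had 0 UMIs in border macrophages, Cd38 10, Siglec1 32 and Colec12 149. The same filter shaped the counts of the lists below.

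Clec10a, a galactose-binding lectin of macrophages, stood at 927, 1410, 1472 and 1606 CPM in sets 1 to 4, against at most 0.948 CPM in microglia. Pf4, the chemokine platelet factor 4, stood at 502, 1082, 2082 and 1712 CPM against 4.92 to 24.2. F13a1, the A subunit of coagulation factor XIII, stood at 155, 197, 638 and 737 CPM against at most 0.403. No set of microglia came near the lowest set of border macrophages for any of these genes. Lyve1, a hyaluronan receptor that marks perivascular and meningeal macrophages, was at 228, 98.4, 498 and 649 CPM against 0.276 to 4.60. Folr2, a folate receptor, was at 212, 311, 512 and 462 CPM against 4.84 to 7.46. Dab2, an adaptor of endocytosis, was at 254, 180, 449 and 515 CPM against 1.28 to 3.18. Ms4a7, the eotaxin gene Ccl24 and the lectin gene Fcna were the other genes called, with median log2 ratios of 3.60, 4.36 and 2.92. Maf, at 51.8, 115, 119 and 167 CPM against 28.1, 30.8, 56.3 and 60.3, Ms4a6a and Aspa were not called. All 9 genes called higher stood higher in sets 3 and 4 than in sets 1 and 2. The list median log2 ratio was 3.34, 3.42, 5.13 and 5.15 in sets 1 to 4. With at most 10% mitochondrial UMIs and at least 1000 UMIs, which left 2 cells in set 2, F13a1, Lyve1, Dab2, Ccl24, Ms4a7 and Fcna no longer reached 2-fold in every set. Their median log2 ratios were then 5.19, 5.21, 4.54, 3.38, 3.49 and 3.33, against 5.18, 4.80, 4.88, 4.36, 3.60 and 2.92 before.

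The microglial identity genes ran the other way. Of 11 measured, 10 were lower and none higher, with a median log2 ratio of -2.62. Here the filter tilted the counts towards lower genes, since a gene nearly absent from border macrophages entered only where microglia held much of it. Sall1, a transcription factor of microglial identity, was at 20.7, 16.4, 7.01 and 18.0 CPM against 114, 122, 154 and 175 CPM in microglia. Gpr34 was listed at 0 in sets 1 to 3 and at 26.1 CPM in set 4, against 57.8 to 229. The purinergic receptor P2ry12 was at 25.9, 0, 42.1 and 21.2 CPM against 63.9, 70.5, 128 and 125. Its median log2 ratio was -1.76. It was -1.71 under the stricter cell filter, -1.72 and -1.59 with at least 3 and 5 UMIs of Mrc1 plus Cd163, and -1.75 with another border macrophage marker required, and under these 4 settings it did not reach 2-fold in every set. Taking 3 counts as the limit that a count of 0 allows, a 0 in set 2 allows up to 49.2 CPM. The growth factor receptor gene Csf1r, shared by both classes, was the gene not called, at 290, 98.4, 1002 and 993 CPM against 858, 756, 1540 and 1363. The proteinase inhibitor gene Cst3 was lower, at 5531, 4409.8, 11615 and 10688 CPM against 34796 to 82054, as were Sparc, Golm1, Ltc4s, Tgfbr1 and Slc2a5.

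**Figure D2:**
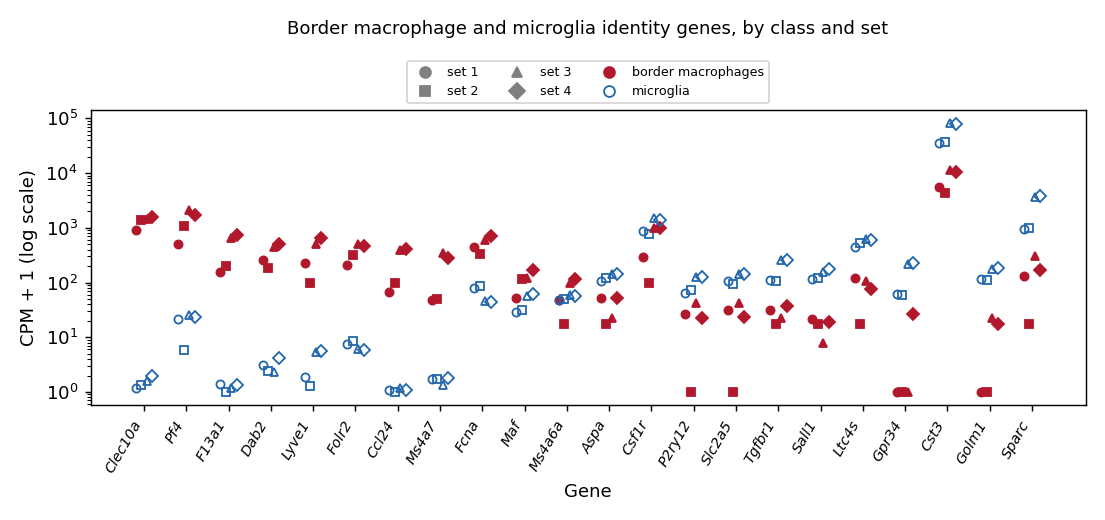
CPM plus 1 (log scale) of border macrophage and microglia identity genes, each gene with 4 barcode sets (symbols) in border macrophages (filled red) and microglia (open blue). Clec10a is at 927 to 1606 CPM in border macrophages and at most 0.948 CPM in microglia, while Sall1 is at 7.01 to 20.7 and 114 to 175 CPM.

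Complement factor D (Cfd), a serine protease of the alternative complement pathway, had the largest ratio of the 74 genes called higher, taken in its lowest set. It stood at 2771, 2426, 2236 and 2329 CPM in sets 1 to 4, against 0.638 to 3.65 CPM in microglia. In cells thinned to 2000 UMIs, a Cfd transcript was found in 91.7%, 93.8%, 86.4% and 85.7% of border macrophages. It was found in 0.118% to 0.731% of microglia and in 0% to 0.413% of oligodendrocytes, which should lack it and had median depths of 5116 to 6534 UMIs before thinning. Clec10a was found in 63.9%, 93.8%, 81.8% and 86.7% of border macrophages and in at most 0.188% of microglia. Lyve1 was found in 25%, 25%, 40.9% and 45.7% of thinned border macrophages and in 48.6%, 25%, 62.5% and 61.2% of them before thinning. It was found in none of the oligodendrocytes and in 0.0498% to 1.06% of microglia.

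Chemokine ligands, which draw leukocytes out of vessels, held 9 higher genes of 15 measured and none lower, with a median log2 ratio of 3.35. Cxcl1, a neutrophil attractant, stood at 6510, 2508, 4395 and 3306 CPM against 21.3 to 38.9 CPM in microglia. The related Cxcl2 was the most abundant of those called, at 12865, 18295, 11377 and 11836 CPM against 1175 to 1358. Cxcl3 was lower in level, at 445, 410, 119 and 243 CPM against 1.33 to 3.46. Only 27.8%, 31.25%, 9.09% and 18.1% of thinned border macrophages held a Cxcl3 transcript, so its level also came from few cells. The 3 CXC genes were thus all higher, by very different ratios. Among monocyte attractants, Ccl2 was at 3926, 3557, 3610.1 and 4716 CPM against 266 to 511. Ccl7 was at 2046, 1623, 1486 and 2641 CPM against 10.9 to 18.1. Ccl12 was at 1295, 115, 2047 and 699 CPM against 2.09 to 14.3, but only 19.4%, 6.25%, 27.3% and 21.9% of thinned cells held a transcript, so its level came from few cells. Ccl6, Ccl24 and Pf4 were also higher.

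Ccl3 and Ccl4, which also attract leukocytes, were not among them. Ccl3 was at 5101, 3852, 3295 and 3115 CPM in border macrophages and 8468, 9551, 8219 and 8146 CPM in microglia, a median log2 ratio of -1.31. Ccl4 was at 8250.4, 9344, 5972 and 5876 CPM against 13029 to 16480.3. Both were lower in every set, without reaching 2-fold in all. Cxcl10 and Cxcl16 were also not called, and neither were Ccl5 and Cxcl13, whose order between the classes differed among sets. Within a set, cells with more Ccl2 also held more Ccl7. Spearman rho was 0.52, 0.53, 0.32 and 0.46 over 36, 16, 22 and 105 thinned cells of the same library. Other chemokine pairs were less even over sets 1 to 4. Cxcl1 with Cxcl2 gave 0.81, 0.20, 0.67 and 0.40, and Cxcl1 with Ccl12 gave 0.27, 0.43, 0.13 and 0.05.

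**Figure D3:**
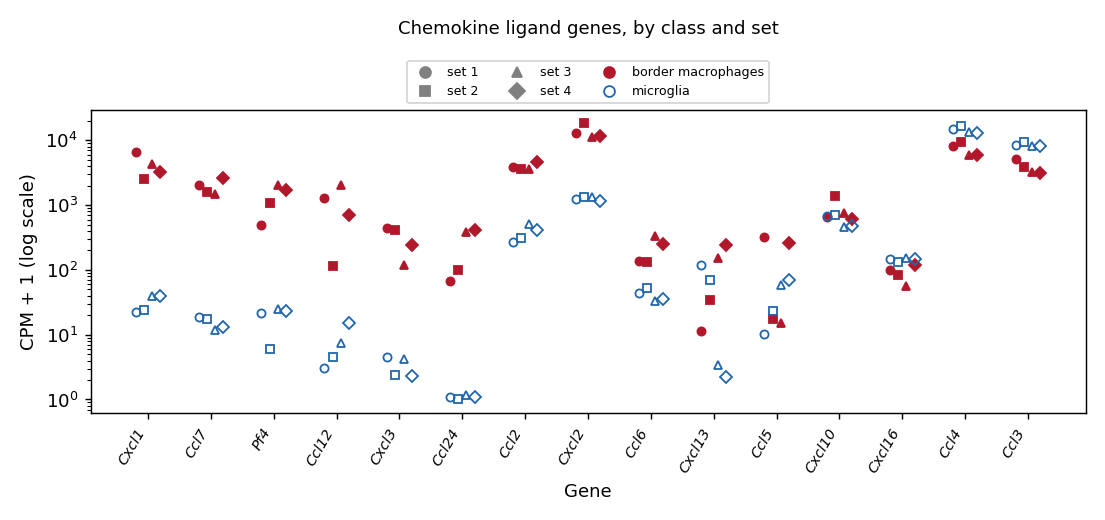
CPM plus 1 (log scale) of the 15 measured chemokine ligand genes in border macrophages (filled red) and microglia (open blue), with 4 barcode sets as symbols. Cxcl1 is at 2508 to 6510 CPM in border macrophages against 21.3 to 38.9 CPM in microglia, and Ccl3 and Ccl4 are lower in border macrophages in every set.

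Genes of uptake and of the complement cascade differed in part. Of 7 measured scavenger and uptake receptor genes 3 were higher and none lower, with a median log2 ratio of 1.89. The higher genes were Lyve1, Dab2 and the clathrin heavy chain gene Cltc. Lrp1, a lipoprotein receptor, and Cd302 were not called. In the complement list 3 of 6 measured were higher and 1 lower. C5ar1, the receptor of the C5a fragment, was at 233, 328, 336 and 248 CPM against 15.6 to 31.8. Properdin (Cfp), which stabilises the alternative pathway convertase, and Fcna were the other 2. C3, the central component, was lower, at 41.4, 98.4, 49.1 and 123 CPM against 279 to 426. Of 13 Fc and pattern receptors, Cd14, which binds bacterial lipopolysaccharide, and Cybb, the catalytic subunit of the phagocyte oxidase, were higher. Cybb stood at 777, 754, 673 and 1062 CPM against 26.2 to 60.6.

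Growth factors gave 3 higher genes of 7 measured. Igf1, insulin-like growth factor 1, was at 176, 328, 379 and 278 CPM against 3.14 to 8.63. Gdf15, a stress-induced member of the transforming growth factor family, was at 678, 574, 463 and 429.6 CPM against 1.93 to 3.78. Bmp2 was the third, at 16.4 to 196 CPM against at most 0.806, with 1 UMI in set 2. In the iron and haem list 2 of 5 were higher: Blvrb, which reduces biliverdin, at 72.5, 49.2, 259 and 188 CPM against 5.75 to 10.1, and Ncoa4, the receptor for ferritin turnover, at 347, 492, 126 and 258 CPM against 35.3 to 48.1. The ferritin chain genes were not called, with median log2 ratios of -0.38 for Fth1 and 0.08 for Ftl1.

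Lysosomal genes leaned to microglia: of 20 measured none was higher and 5 were lower, Ctsd, Ctss, Ctsz, Lamp2 and Npc2, with a list median of -1.04. The aspartic protease gene Ctsd was at 197, 82.0, 112 and 118 CPM against 942 to 1044. Cd68 and Ctsa ran the other way in sets 1, 3 and 4 without a call, with median log2 ratios of 1.71 and 0.79. Cd68 was at 373, 213, 708 and 647 CPM against 241, 252, 92.2 and 79.4. Of 12 genes known from disease-associated microglia, Igf1 was higher and Trem2, Spp1, Cd9 and Ctsd were lower. Trem2, the lipid-sensing receptor, was at 306, 459, 336 and 252 CPM against 998 to 1131. Apoe, the main lipoprotein gene, was abundant in both classes and not called, at 26978, 32180.3, 32273 and 25625 CPM against 13704 to 14514 CPM. Among 19 myeloid transcription factors Cebpd was higher, and Cebpa and Id1 were lower. Cebpa stood at 104, 148, 42.1 and 99.6 CPM against 594 to 762.

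The rest of the gene lists held few calls. Of 5 matrix and proteolysis genes F13a1 was higher, and Cst3, Spp1 and Timp2 were lower; of 4 alternative activation genes Clec10a and Ccl24 were higher. In the lipid list Hpgds, prostaglandin D synthase, was higher and Lpcat2 lower of 9 measured. In the glucocorticoid response list Mt1, Cdkn1a and Anxa1 were higher of 11, but the list median was 0.03. Ninj1 and Ahnak were higher among 14 adhesion and cytoskeleton genes, and Cd9, Itga6 and Tmsb10 were lower. Of 7 interferon genes Ifi47 was higher, and of 14 cytokine and NF-kB genes Il1a was lower. None of the measured MHC class I (8), immediate early (15), heat shock (12), glycolysis and hypoxia (9), antioxidant (10) or cell cycle (3) genes was called. Outside the lists, genes called higher besides Cfd included the heparan sulfate proteoglycan gene Sdc4, at 1341, 1066, 505 and 894 CPM against 4.43 to 16.3, and Fgl2, a fibrinogen-like protein gene, at 1316, 2574, 638 and 1219 CPM against 32.7 to 78.8. RGD1559482 was also called, with a median log2 ratio of 4.66. The genes lowest against microglia included Igh-6, Gmpr, Smad7, Nav3, Abi3 and Havcr2. Without the 3 odd cells 77 genes were higher and 132 lower of 2009, and all 74 and 114 of the main calls were among them.

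More genes were apart between barcode sets in border macrophages than in microglia. Of 334 genes with a mean of at least 300 CPM over the sets, 216 (64.7%) had a highest set at least 2-fold over the lowest. In microglia 47 of 338 (13.9%) did. Each microglial sum held 12419198 to 21094026 UMIs, while 300 CPM in set 2 of border macrophages is 18.3 UMIs. Counting error at low depth itself widens a highest-to-lowest ratio, so the 2 shares do not compare the classes. Set 2, with 16 cells, was lowest for 139 of the 216 genes, and without it 85 of 335 genes were apart. Several of the widest gaps rested on few cells. AABR07060872.1 was at 22173 CPM in set 4, with 95.3% of its UMIs over all sets from 1 cell, and at 816 CPM without that cell. In sets 1 to 3 it was at 508, 607 and 189 CPM, and microglia held 5615 to 12553 CPM over the 4 sets. AABR07034739.1 was at 1424 CPM in set 4 with 76.4% from 1 cell. Lyz2 was at 3304, 328, 2432 and 3406 CPM, but at 329 CPM in set 1 without the 2 odd cells. Rasd1, a Ras-related gene induced by dexamethasone, was at 197, 1148, 91.1 and 44.1 CPM, with 32.4% of its UMIs from 1 cell.

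Other genes were apart over many cells. The transcription factor gene Cebpd was at 357, 1098, 70.1 and 207 CPM, highest in set 2. Against microglia its median log2 ratio was 2.61. With at least 3 UMIs of Mrc1 plus Cd163 it was 2.45 but did not reach 2-fold in every set. The interferon-inducible Slfn4 was at 699, 393, 112 and 57.2 CPM, and in microglia at 96.2, 61.1, 8.62 and 7.49 CPM, in the same order. Of 13 measured immediate early genes 10 were apart, near the 64.7% of all genes. Fos was at 13191, 15656, 8229.6 and 7593 CPM, higher in sets 1 and 2. The chaperone gene Bag3 was at 98.4, 82.0, 806 and 513 CPM, higher in sets 3 and 4, as in microglia, where it was at 236, 257, 1058 and 1069 CPM. The ribosomal protein gene Rps25 was at 300.4, 32.8, 498 and 425 CPM. Sets 1 and 2 were also those with the higher mitochondrial share, given above, and its part in these gaps was not tested.

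MHC class II genes were among those farthest apart between sets. The sets with the higher levels were not the same in border macrophages and microglia. These genes encode the surface heterodimers that show peptides to CD4+ T cells; Cd74 is their invariant chain. Of 6 measured, none was called against microglia. In summed counts, Cd74 and the 4 RT1 genes were lower in border macrophages than in microglia in sets 1 and 2. They were higher in sets 3 and 4, by a log2 ratio of only 0.14 for Cd74 in set 3. For the class II sum of set 3 this did not hold when the rule was applied to thinned cells, as given below. The costimulatory gene Cd86, also on the list, was lower in every set and missed 2-fold in set 4. All 4 measured between sets were apart: Cd74, RT1-Ba, RT1-Da and RT1-Db1. The start sites of the RT1 genes lie in 1 region of chromosome 20, and the 4 alpha and beta chain genes shown share the letters CTGATTGG, which hold the core of the CCAAT box. The windows run from 110 to 11 bases before the annotated start in RefSeq's GRCr8 assembly, not the build of the matrix, with the shared letters in capitals.
RT1-Ba (chr20:4576947-4577046, plus strand): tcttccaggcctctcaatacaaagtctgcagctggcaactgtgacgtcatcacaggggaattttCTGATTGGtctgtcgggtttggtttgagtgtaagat
RT1-Bb (chr20:4604129-4604228, minus strand): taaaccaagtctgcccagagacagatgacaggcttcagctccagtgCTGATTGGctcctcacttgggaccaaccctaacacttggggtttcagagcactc
RT1-Da (chr20:4515305-4515404, plus strand): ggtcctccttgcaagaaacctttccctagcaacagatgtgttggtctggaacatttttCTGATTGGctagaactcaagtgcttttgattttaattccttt
RT1-Db1 (chr20:4560173-4560272, minus strand): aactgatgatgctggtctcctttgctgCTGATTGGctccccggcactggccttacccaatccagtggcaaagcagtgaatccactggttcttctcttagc
The letters were chosen after reading these sequences. On either strand they occur in 5 of the 8 class II promoters matched, RT1-DOa being the other, and in 1.90% of 33469 promoter windows of the same length. Their inner part ATTGG occurs in 17.4%. A match describes the letters only.

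RT1-Da, a class II alpha chain, was at 719.9, 672, 3540.0 and 7091 CPM in border macrophages of sets 1 to 4 and at 4759.9, 4802, 2416 and 2222 CPM in microglia. RT1-Db1, a beta chain, was at 569.7, 246, 2601 and 4593 CPM against 3468, 3144, 2056 and 1796. RT1-Ba was at 653, 492, 1710.4 and 2587 CPM against 3482, 3158, 1166 and 992. The invariant chain Cd74 was at 1082, 885, 5299 and 9545 CPM against 6838, 6344, 4804 and 4478. In border macrophages sets 3 and 4 were thus the higher for each gene, and in microglia sets 1 and 2. RT1-Bb was much lower in level. The RT1 genes are a family of similar copies, so reads could be divided between them, and the sum over the 10 class II genes is less exposed to that. It was 3040.2 CPM in set 1 (95% exact Poisson interval 2799 to 3296), 2328 in set 2 (1961 to 2744), 13417 in set 3 (12823 to 14032) and 24099 in set 4 (23712 to 24491), against 18679, 17525, 10566 and 9578 CPM in microglia. The Poisson intervals treat UMIs as independent and do not cover differences between cells. Without the 3 odd cells set 1 was at 3268 CPM and set 4 at 24720 CPM.

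The sums came from unequal cells. In cells thinned to 2000 UMIs the median class II count was 1, 1, 2 and 12 in border macrophages and 30, 29, 10 and 9 in microglia. In set 4 the middle 50% of border macrophages ran from 1 to 55 UMIs and the highest cell held 251. In set 3 the middle 50% ran from 1 to 33.5 UMIs, and 8 of 22 cells held at least 10. At least 10 of 2000 UMIs were class II in 16.7% of border macrophages of set 1 (95% exact interval 6.37 to 32.8), 12.5% of set 2 (1.55 to 38.3), 36.4% of set 3 (17.2 to 59.3) and 52.4% of set 4 (42.4 to 62.2). In microglia the shares were 84.5%, 82.4%, 50.5% and 49.7%. In set 3 the median and share of border macrophages were thus below those of microglia, while their sum was above. The interval of that share held the microglial value. Within set 4 the 48 thinned cells with Lyve1 had a median of 14.5 class II UMIs and the 57 without it 4. In set 3 the order was the other way, with 1 in 9 cells and 5 in 13 cells. Cells with and without Lyve1 thus had no common order of class II level over the sets.

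**Figure D4:**
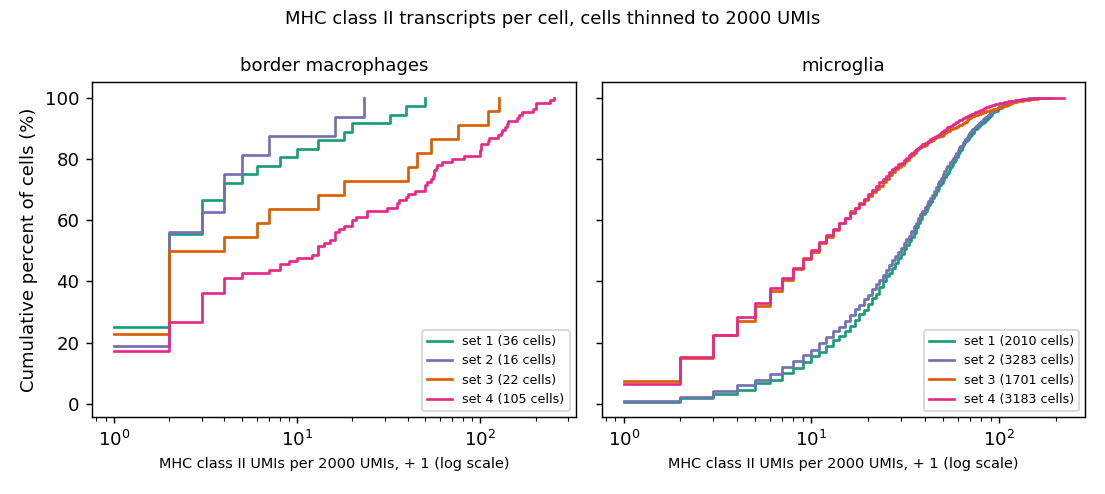
Cumulative percent of cells by number of MHC class II UMIs per 2000 UMIs (plus 1, log scale), border macrophages left and microglia right, 1 line per barcode set. In border macrophages set 4 lies to the right of sets 1 and 2, and set 3 only in its upper part (medians 12 and 2 against 1 and 1). In microglia sets 1 and 2 lie to the right (30 and 29 against 10 and 9).

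In set 4, the class II level of border macrophages differed with their mitochondrial share. Of the cells in sets 1 to 4, 83.8%, 87.5%, 41.7% and 32.2% had over 10% mitochondrial UMIs. Among those, 16.7%, 7.14%, 22.2% and 16.1% had at least 10 class II UMIs of 2000. Among cells at or below 10% the shares were 1 of 6, 1 of 2, 6 of 13 and 50 of 74 cells (67.6%, interval 55.7 to 78.0, in set 4). In sets 1 to 3 the intervals of cells above and at or below 10% overlapped, and in set 1 both shares were 16.7%. The intervals of the cells above 10% overlapped between all sets, and the low-share cells of sets 1 and 2 are too few to be placed. In microglia the split by mitochondrial share was small beside that between sets, with 75.3% and 74.2% above 10% and 85.3% and 83.0% at or below it in sets 1 and 2. In sets 3 and 4 the microglial shares were 41.4% and 51.6% above 10% and 50.9% and 49.7% at or below it, so in set 4 the cells above 10% were not the lower. With at most 10% mitochondrial UMIs and at least 1000 UMIs the sums were 2371, 4253, 18291 and 29823 CPM. With the rule applied to thinned cells they were 3981, 955, 4773 and 20151 CPM, where sets 1 and 3 lay closer together. Set 3 then held 11 cells, and its sum lay below the 10566 CPM of its unthinned microglia. That border macrophages of set 3 stood above microglia in summed counts thus depended on which cells were chosen. The part of the mitochondrial share in the difference between sets was not tested.

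**Figure D5:**
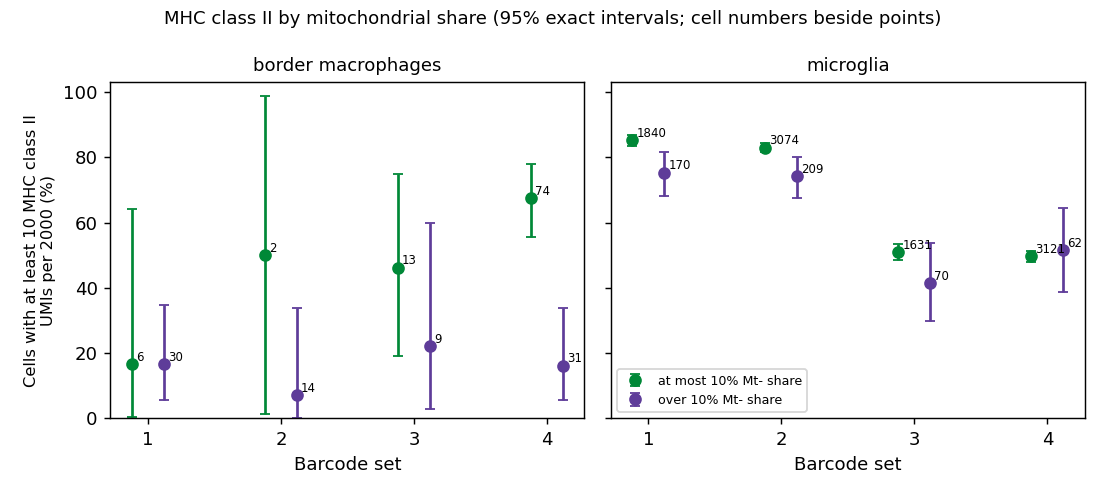
Percent of cells with at least 10 MHC class II UMIs per 2000, by barcode set and mitochondrial (Mt-) share, border macrophages left and microglia right. Points are shares with cell numbers beside them and bars are 95% exact binomial intervals; in set 4 border macrophages at or below 10% stand at 67.6% and those above at 16.1%.

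Set 4 held enough cells to describe this split by gene, without its odd cell. The 39 cells above 10% had a median of 2947 UMIs and 900 genes, and the 81 at or below it 5575 UMIs and 1683 genes. Ribosomal protein transcripts were 4.43% of UMIs in the former and 12.6% in the latter, and 55 of 60 ribosomal protein genes were at least 2-fold lower. All 4 class II genes were lower, Cd74 at 1406 against 12066 CPM and RT1-Da at 528 against 9165 CPM. Lyz2, which made up most of the monocyte marker sum, was also lower, at 559 against 4325 CPM. Gdf15 was higher, at 1243 against 221 CPM. Of 12 heat shock genes 11 were at least 2-fold higher, Hspa1b at 9648 against 2587 CPM, and 7 of 12 immediate early genes were higher, Fos at 14239 against 6026 CPM. Over all 314 genes compared, 35 were at least 2-fold higher and 94 lower, with a median log2 ratio of -0.46. None of 8 border macrophage genes passed 2-fold, but all except Ccl24 were lower above 10%, with a list median log2 ratio of -0.65. F13a1 was at 443 against 844 CPM, Lyve1 at 396 against 743 CPM and Clec10a at 1025 against 1828 CPM. Ccl24 was higher, at 590 against 385 CPM. Cfd, outside that list, was at 2237 against 2443 CPM. Of 10 chemokines, Ccl12 was at least 2-fold higher, at 1903 against 393 CPM, and none was 2-fold lower. The others lay between Cxcl10, at 1025 against 524 CPM, and Ccl4, at 3752 against 6684 CPM. The cells differ in depth and are of 1 library, and no test was made.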

How the data were processed

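Per the labels' protocols, single cells were captured on the 10x Genomics platform (3' reagents, version 3). The authors deposited 1 matrix of whole-number UMI counts (32623 genes, 31638 barcodes), written by Cell Ranger 5.0.0 per the file headers; the submitters' processing notes name Cell Ranger, STAR and the build Rnor_6.0. The gene annotation is not given in the sources used here.

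Counts were summed per class and barcode set and divided by the class total (CPM). With 1 library per titled sample and no map from suffix to title, genes were named by size of ratio, with no test. Mean filters were 50 CPM between classes and 300 CPM between sets; 10 CPM were added before taking log2; the 12 selecting genes were left out. Intervals are exact at 95%. Cells were thinned with seed 1. Doublets were scored with Scrublet (scanpy 1.11.5) at 6% expected and kept. Named genes were all measured border macrophage and microglia identity genes, the 2 highest and 2 lowest of each other list, the 15 highest, 10 lowest and 12 farthest apart between sets; a few others were added after their values were seen. Members and gene lists were chosen with earlier results of these data known. Scripts were tested on simulated data. Alternatives included edgeR 4.0.16 TMM factors, other filters, folds and thresholds. Of the measured microglia identity genes, 1 is counted but not reported here.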

Additional observations from a re-analysis of the deposited data

How the results depend on the processing

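No paired analysis was possible because the barcode sets are not tied to titled samples, whose replicate number is 1 throughout. The share of kept cells over all sets, 0.686%, was 0.466% with at least 1000 UMIs and at most 10% mitochondrial UMIs (0.136%, 0.0327% and 1.05% in sets 1, 2 and 4), 0.544% with at least 3 UMIs of Mrc1 plus Cd163 (1.12% in set 4), 0.332% with at least 5 (0.229%, 0.0606%, 0.207% and 0.742% in sets 1 to 4) and 0.498% with thinned cells (0.236% and 1.01% in sets 3 and 4). Leaving out each set in turn gave 0.383% (without set 4) to 0.882% (without set 2). Set 4 had the highest share and set 2 the lowest in each alternative that gave shares by set. The 74 genes higher and 114 lower than in microglia became 48 higher under the stricter cell filter, where set 2 keeps few cells and the calls of Lyve1, F13a1, Dab2, Ccl24, Ms4a7, Fcna, Ccl12, Cd14, Anxa1, Blvrb, Ncoa4, Ctsd and P2ry12 among others ended. The median log2 ratio of Ccl12 was then 1.87 against 5.81, while those of Cd14 (3.44 against 2.95), Anxa1 (3.50 against 3.57), Blvrb (2.60 against 2.78) and Ctsd (-2.83 against -3.08) moved less. They became 135 and 219 at 1.5-fold, 27 and 27 at 4-fold, 44 and 70 with 50 CPM added, 112 and 173 at a mean of at least 20 CPM, 30 and 45 at 200 CPM, and 121 and 219 with no filter; thresholds of fold and level change these counts by construction. Leaving out a set gave 77 to 89 higher and 124 to 152 lower. TMM factors moved the median of all genes by -0.12 on the log2 scale and gave 64 higher and 129 lower. Genes apart between sets, 216 of 334, were 85 of 335 without set 2, the low end of leaving out a set, and 566 of 985 and 92 of 134 at a mean of at least 100 and 1000 CPM. Over 122 named genes and these alternatives, 2177 values stayed on their side of the threshold, 90 lost a call and 51 gained one. The median of the alternative activation list was 0 with no filter, where it includes genes hardly found. Set 2, with 61000 UMIs in 16 cells, is the least precise; leaving out each other set also let named genes gain calls, such as Ccl3 without set 1, Bag3 without set 3 and Cd86 without set 4.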
